A study of Mus musculus with 14 samples.

Results

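Transcripts of the Wnt pathway were followed in 2 sorted cell types of mouse skin, hair follicle stem cells and regulatory T (Treg) cells, with and without the glucocorticoid receptor in Treg cells. The set comprised 55 genes chosen by symbol, and all 55 were found among the 24537 genes of each of the 2 deposited tables. By role they were 14 ligands and secretion factors, 15 receptors and co-receptors, 6 secreted inhibitors, 6 genes of the R-spondin arm, 10 intracellular components and DNA-binding partners, and 4 feedback targets. The measured quantity was TPM, the number of reads per transcript length scaled within each library, so that levels can be compared between genes. The deposited values summed to 639752 to 645251 per HFSC library and 649917 to 668742 per Treg library, so the total was not the same in every library.

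Wnt ligands are lipid-modified by Porcn, carried out of the cell by Wls, and bind Frizzled receptors together with the co-receptors Lrp5 and Lrp6. Binding stops the Axin and Gsk3b complex from degrading beta-catenin (Ctnnb1), which enters the nucleus and joins the TCF and LEF factors to switch on targets such as Axin2. In skin, this signal drives the stem cells of the resting hair follicle into growth, whereas secreted inhibitors such as Sfrp1, Dkk3 and Wif1 are produced in the stem cell niche.

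The study asked how loss of the glucocorticoid receptor in Treg cells affects the skin after the hair is pulled out (depilation), which starts a new hair cycle. GR KO mice carried Foxp3YFP-Cre and GRfl/fl, an allele pair that deletes the floxed receptor gene wherever the Treg factor Foxp3 is expressed. GR WT mice were labelled wild type, and whether they carried the Cre is not given in the sources used here. HFSC from GR KO mice (n = 3 libraries) and from GR WT mice (n = 3) were the CD34-positive, integrin alpha 6-high cells taken 4 days after depilation. Treg cells from GR KO mice (n = 5) and from GR WT mice (n = 3) were taken 1 day after depilation. HFSC do not express Foxp3, so in them the comparison is between stem cells of mice that differ in their Treg cells. The labels do not say whether replicates came from separate mice, so p-values measure the spread between libraries, which may be technical.

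Recovered depth was 9.2 to 14.5 M tags in Treg libraries and 4.5 to 8.0 M in HFSC libraries, with GR WT replicate 1 the shallowest HFSC library. The targeted gene, Nr3c1, ranged over 105.6 to 171.4 TPM in GR KO Treg cells and over 170.5 to 233.4 TPM in GR WT Treg cells (log2 fold change -0.71 ± 0.17, SE, adjusted p = 0.0722). A whole-transcript value does not single out the deleted exons, which the labels do not name. In HFSC it was at 35.7 to 48.5 TPM in GR KO and 34.8 to 48.9 TPM in GR WT. Foxp3 was at 136.9 to 204.5 TPM in GR KO Treg cells and 159.8 to 281.4 TPM in GR WT Treg cells, and at no more than 0.357 TPM in HFSC. Cd34 and Krt15, which define HFSC, were at 108.8 TPM and 3562 TPM or more in every HFSC library. In bulk RNA such as this, fewer cells of a type and less RNA per cell cannot be told apart.

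The response genes of the pathway can be introduced by their promoters, taken from RefSeq on build GRCm38.p6 as 300 bases around the annotated start. Shown are Axin2 and Lef1, which are transcribed targets used as markers of Wnt response, and Sp5 and Dkk1, feedback genes whose transcripts were not detected in HFSC. Capitals mark the TCF/LEF core word in its 4 spellings, which are CTTTG followed by AA, AT, TA or TT, or the glucocorticoid receptor half-site word AGAACA. Each word was searched on both strands, so that AACAAAG in Sp5 is the spelling with TT read on the other strand.
Axin2, chr11:108920099-108920398, plus strand: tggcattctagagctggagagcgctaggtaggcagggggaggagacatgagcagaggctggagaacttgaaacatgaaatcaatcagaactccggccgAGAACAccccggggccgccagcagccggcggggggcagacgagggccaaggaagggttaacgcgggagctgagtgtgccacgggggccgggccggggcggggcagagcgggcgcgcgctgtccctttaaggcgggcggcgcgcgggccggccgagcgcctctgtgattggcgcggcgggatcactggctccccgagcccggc
Lef1, chr3:131112541-131112840, plus strand: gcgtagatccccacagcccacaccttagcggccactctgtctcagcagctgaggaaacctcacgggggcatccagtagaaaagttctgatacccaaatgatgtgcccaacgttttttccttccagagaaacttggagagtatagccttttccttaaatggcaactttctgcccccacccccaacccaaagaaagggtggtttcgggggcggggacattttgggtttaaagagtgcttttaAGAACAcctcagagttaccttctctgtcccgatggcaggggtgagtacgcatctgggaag
Sp5, chr2:70474673-70474972, plus strand: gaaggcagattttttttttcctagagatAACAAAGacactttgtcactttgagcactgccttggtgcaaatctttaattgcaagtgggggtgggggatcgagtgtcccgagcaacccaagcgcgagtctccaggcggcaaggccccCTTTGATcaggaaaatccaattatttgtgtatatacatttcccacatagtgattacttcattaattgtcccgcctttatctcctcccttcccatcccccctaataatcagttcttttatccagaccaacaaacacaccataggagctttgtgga
Dkk1, chr19:30549447-30549746, minus strand: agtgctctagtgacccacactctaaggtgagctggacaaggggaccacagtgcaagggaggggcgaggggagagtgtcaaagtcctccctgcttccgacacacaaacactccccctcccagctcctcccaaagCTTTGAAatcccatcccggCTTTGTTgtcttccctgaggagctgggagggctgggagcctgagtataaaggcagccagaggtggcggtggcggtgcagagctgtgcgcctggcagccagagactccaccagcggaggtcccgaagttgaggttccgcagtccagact

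Counted from the 5′ end of the window, Sp5 held TCF/LEF words at bases 29 to 35 and 147 to 153, and Dkk1 at 134 to 140 and 153 to 159. Axin2 and Lef1 held the AGAACA word once each, at 99 to 104 and at 241 to 246. A TCF/LEF word was found in 15.1% of the 15146 promoters whose start matched a transcript of the tables and in 4 of the 33 member promoters, or 12.1%. Besides Sp5 and Dkk1 these were Fzd7 and Wnt3. The AGAACA word was found in 17.2% of all promoters and in 6 of 33 member promoters, or 18.2%, those of Axin2, Lef1, Dkk2, Wnt5b, Fzd4 and Rnf43. Both shares among members lay near those of all promoters. Such words are letters only, and their presence was not compared with binding.

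For 5 members every Treg library lay above every HFSC library, namely Wls, Dkk2, Rspo3, Lef1 and Notum. For 34 members every HFSC library lay above every Treg library, and 16 overlapped. That is 9.1% of the members wholly higher in Treg cells and 61.8% wholly higher in HFSC, beside 11.53% and 24.4% of all 24537 genes, many of them without a tag in either table. Among genes that averaged at least 1 TPM in either table, 11.4% of 44 members and 19.9% of all genes lay wholly higher in Treg cells, and 33 of those 44 members and 42.7% of all genes lay wholly higher in HFSC. The tables were normalised separately, so these orders are descriptive. A mean of at least 1 TPM, the level required for testing, was reached by 29 of 55 members in Treg cells and by 40 of 55 in HFSC. For 25 members this held in both tables and for 11 in neither, among them the ligands Wnt3, Wnt3a, Wnt7a, Wnt10b, Wnt11 and Wnt16.

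**Figure D1:**
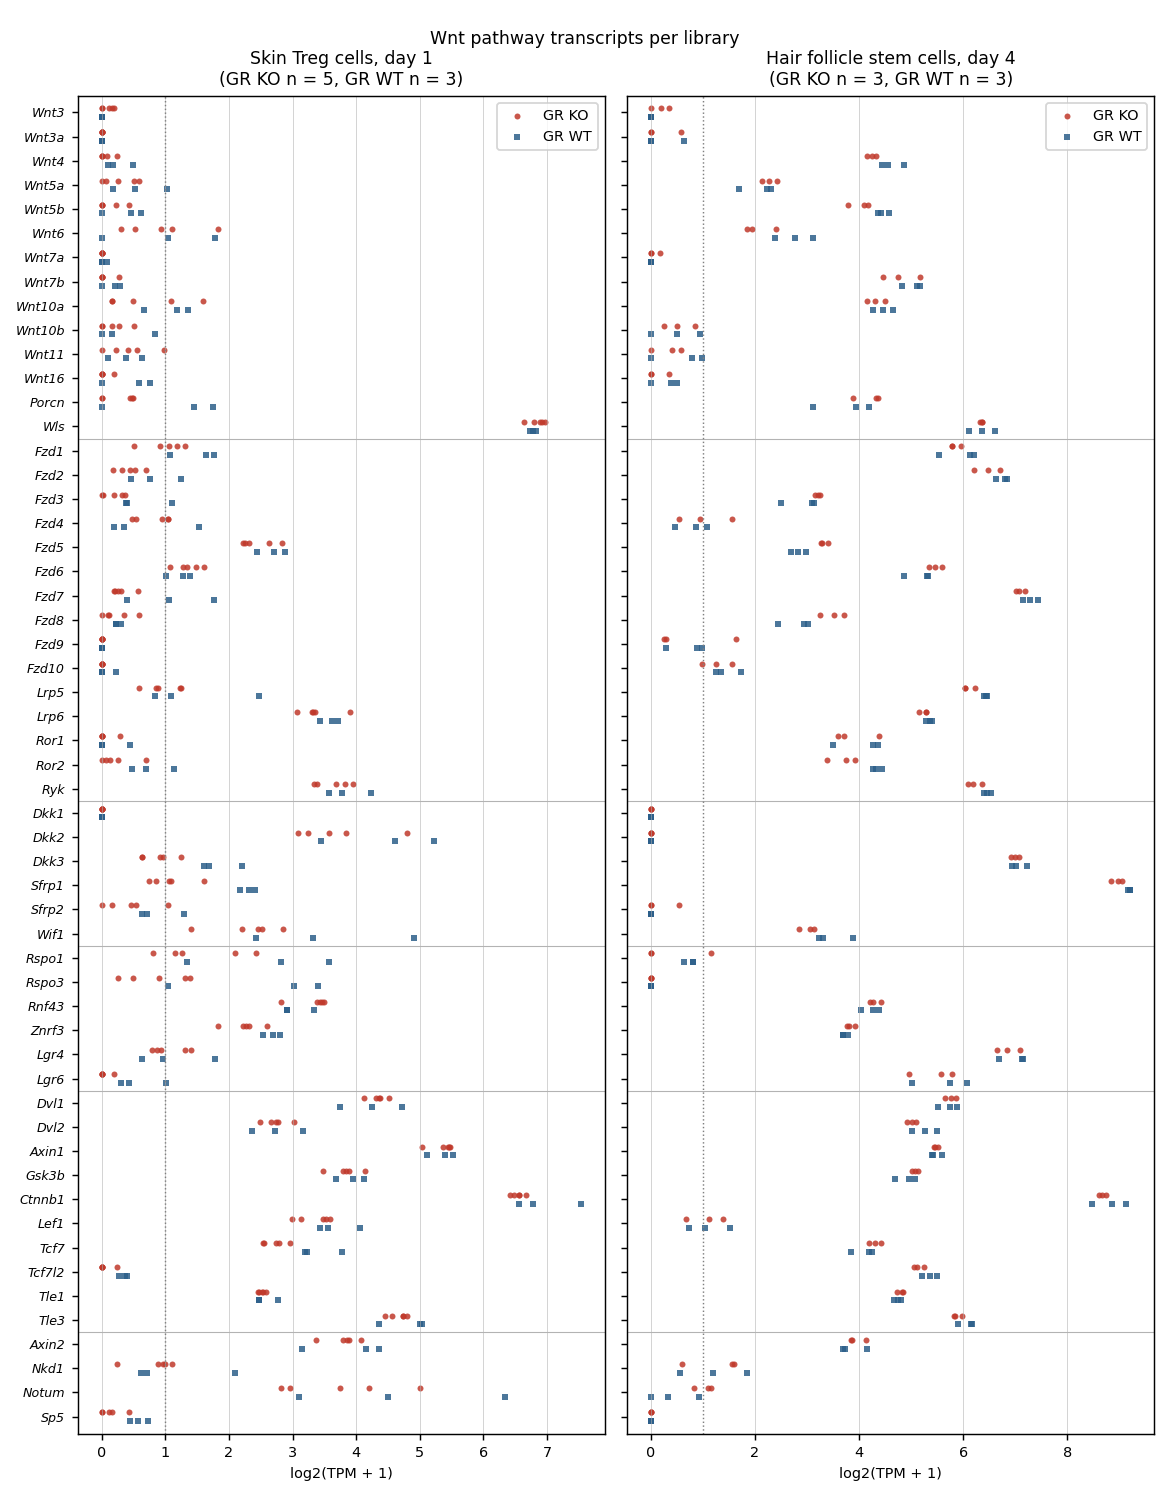
Level of each of the 55 Wnt pathway genes in each library as log2(TPM + 1), in Treg cells 1 day (left) and HFSC 4 days (right) after depilation, with GR KO libraries as circles and GR WT libraries as squares; horizontal lines separate the roles and the dotted line marks 1 TPM. For 34 genes every HFSC library lies above every Treg library, whereas Wls, Dkk2, Rspo3, Lef1 and Notum lie higher in Treg cells.

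The first comparison asked whether Wnt transcripts of HFSC differed between mice whose Treg cells lacked the receptor and wild-type mice. HFSC made 6 Wnt ligands above 1 TPM on average, 8 frizzled receptors, both Lrp co-receptors and very high levels of the inhibitor Sfrp1. No member passed an adjusted p of 0.05 by limma, the linear model fitted to log2(TPM + 1) of all 12493 genes tested, of which 0.176% passed, 0.144% higher and 0.032% lower in GR KO. The canonical response gene Axin2 had a log2 fold change of 0.08, with a 95% confidence interval of -0.34 to 0.50. The members with the smallest p-values were Ror2 and Lrp5, lower in every GR KO library than in any GR WT library, and Fzd8, higher in every GR KO library.

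At an unadjusted p under 0.05 there were 9 members in HFSC, 2 higher and 7 lower in GR KO, which is 22.5% of the 40 tested against 16.6% of all genes tested. By direction, 7.8% of all genes were higher and 8.8% lower at that level. The 3 GR KO libraries did not overlap the 3 GR WT libraries for 11 members, 4 higher and 7 lower in GR KO, or 27.5%, against 23.5% of all genes tested. Over all genes 10.7% lay higher and 12.8% lower in every GR KO library, and among the 40 tested members 4 and 7 did so. Voom, a limma fit on the recovered whole tags, called 2 members, Ror2 (adjusted p = 0.0249) and Lrp5 (adjusted p = 0.0491), and 3.87% of all genes, 240 higher and 243 lower in GR KO, whereas the calls of limma on TPM were 18 higher and 4 lower. Voom scaled libraries by total tags only, and with it 12 members were positive and 28 negative. Axin1 moved from 0.003 to -0.056 and Lrp5 from -0.34 to -0.40, so the Lrp5 call is not independent of this shift. With any 1 of the 6 libraries left out, limma on TPM called 0 to 5 genes, against 22 with all of them. The median log2 fold change of the 40 tested members was -0.12, beside -0.02 over all genes tested, and 15 were positive and 25 negative. Without GR WT replicate 3 the median was -0.003. With a library left out fewer values have to separate, so more genes of any kind do not overlap. Without GR WT replicate 1 the groups did not overlap for 19 members, or 46.3%, against 38.2% of all genes tested. Without GR KO replicate 1 they did not overlap for 17 members, or 42.5%, against 34.9% of all genes tested.

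**Figure D2:**
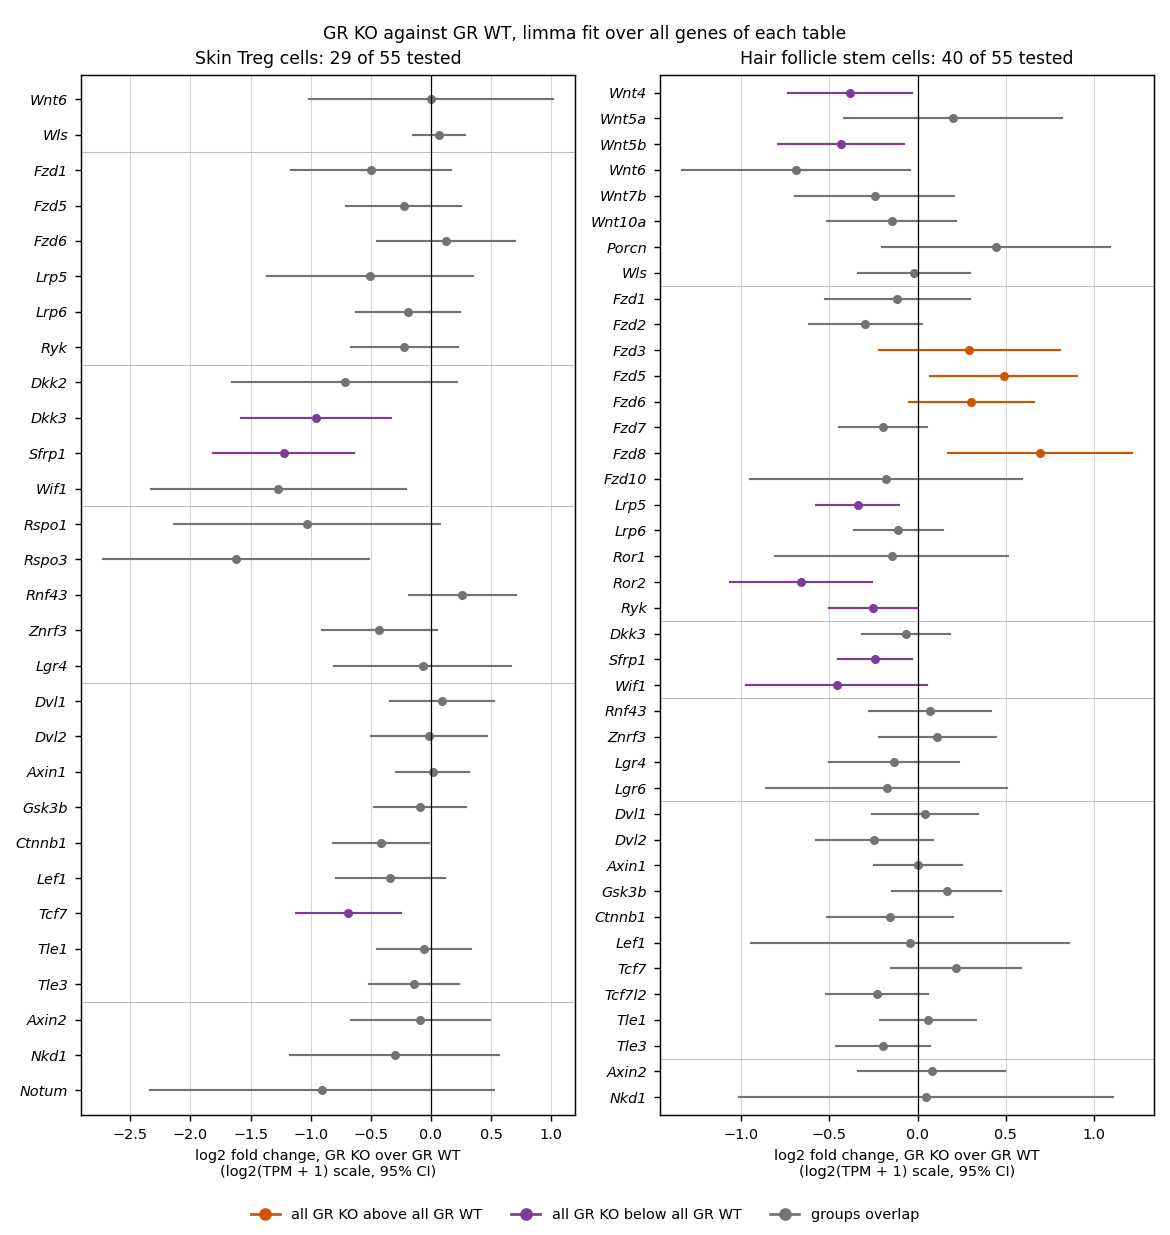
Log2 fold change, GR KO over GR WT on the log2(TPM + 1) scale, with its 95% confidence interval from limma, for the 29 members tested in Treg cells (left) and the 40 tested in HFSC (right); colours show whether every GR KO library lies above or below every GR WT library. In HFSC 4 members lie wholly above and 7 wholly below, in Treg cells 3 lie wholly below, and no member passed an adjusted p of 0.05.

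Of the ligands, HFSC carried Wnt7b, Wnt4, Wnt10a and Wnt5b at the highest levels. Wnt7b, a canonical ligand of the hair follicle, was at 35.01, 25.9 and 20.9 TPM in GR KO HFSC, against 27.4, 33.5 and 34.8 TPM in GR WT HFSC. The GR WT values lay inside the GR KO range (log2 fold change -0.24 ± 0.20, SE, adjusted p = 0.573). Wnt4 was at 16.7, 19.1 and 18 TPM in GR KO HFSC, against 28.2, 20.7 and 22.6 TPM in GR WT HFSC. Every GR KO library lay below every GR WT library (log2 fold change -0.38 ± 0.15, SE, adjusted p = 0.268).

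Wnt5b, which acts mainly outside the beta-catenin route, was at 17.0, 12.8 and 16.0 TPM in GR KO HFSC, against 22.8, 20.5 and 19.5 TPM in GR WT HFSC. Here too the groups were apart, by a log2 fold change of -0.44 ± 0.16 (SE, adjusted p = 0.223). Wnt6, another ligand of the epidermis, was at 2.85, 4.28 and 2.60 TPM in GR KO HFSC, against 7.66, 4.19 and 5.82 TPM in GR WT HFSC. GR KO replicate 2 reached into the GR WT range (log2 fold change -0.69 ± 0.28, SE, adjusted p = 0.274), and the level rested on 24 to 53 tags per library. Wnt10a averaged 19.0 ± 2.34 TPM in GR KO HFSC and 21.2 ± 3.03 TPM in GR WT HFSC (SD, n = 3 each). Wnt5a averaged 3.86 ± 0.505 TPM in GR KO HFSC and 3.28 ± 0.937 TPM in GR WT HFSC.

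Summed over the 12 ligands, HFSC held 95.8, 87.5 and 79.9 TPM in the GR KO libraries, against 112.5, 106.1 and 106.8 TPM in the GR WT libraries. The sums did not overlap, and they were not tested. One by one, Wnt4 and Wnt5b lay wholly lower, 2 of the 8 ligands and secretion factors tested, beside 12.8% of all genes tested. Wnt7b supplied 30.7% on average in GR KO and 29.5% in GR WT, and Wnt10a 21.7% in GR KO and 19.4% in GR WT. Wnt4 supplied 20.6% in GR KO and 21.9% in GR WT, and Wnt5b 17.5% in GR KO and 19.3% in GR WT. The other 6 ligands were each below 1 TPM in every HFSC library. Of the secretion factors, Wls was at 80.6, 80.8 and 78.9 TPM in GR KO HFSC, against 67.7, 81.5 and 97.2 TPM in GR WT HFSC (log2 fold change -0.02 ± 0.14, SE, adjusted p = 0.960). The GR KO values sat close together inside the wider GR WT range. Porcn averaged 17.4 ± 3.18 TPM in GR KO HFSC and 13.0 ± 4.87 TPM in GR WT HFSC (SD, n = 3 each).

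**Figure D3:**
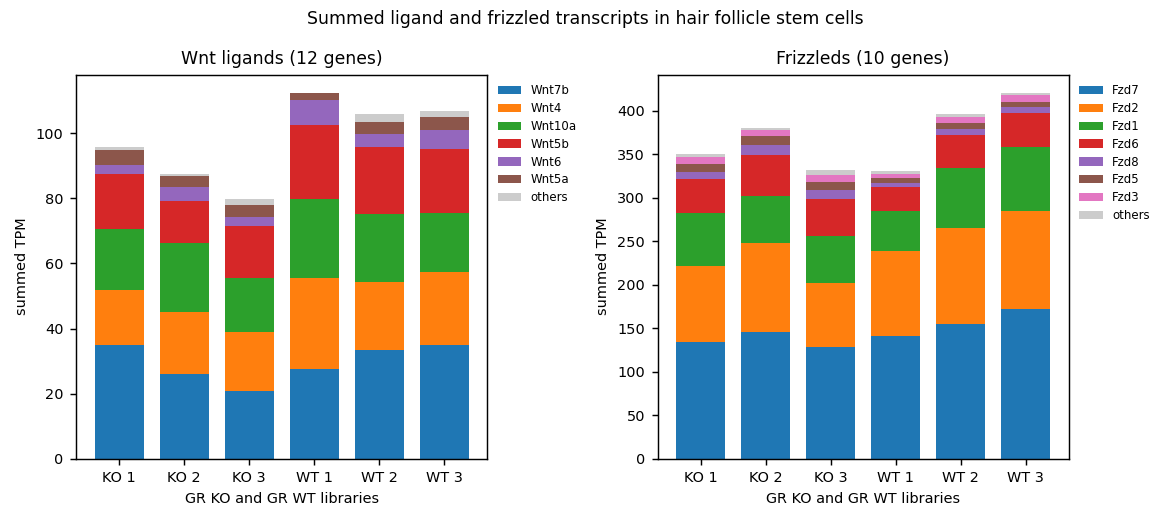
Summed TPM of the 12 Wnt ligands (left) and the 10 frizzled receptors (right) in each HFSC library, stacked by gene, with the GR KO libraries before the GR WT libraries. The ligand sums of 79.9 to 95.8 TPM in GR KO lie below those of 106.1 to 112.5 TPM in GR WT, whereas the frizzled sums overlap. The sums were not tested, and 12.8% of all single genes tested lie wholly lower in GR KO HFSC.

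Among the receptors, Ror2 (chr13:53109317-53286109, minus strand, build mm10), the tyrosine kinase receptor of Wnt5a-type signals, gave the smallest p of all members in HFSC. It was at 14.1, 12.3 and 9.41 TPM in GR KO HFSC, against 18.1, 20.5 and 19.1 TPM in GR WT HFSC. All GR KO values lay below all GR WT values, at 62.1% of the GR WT mean (log2 fold change -0.66 ± 0.18, SE, adjusted p = 0.134). Its relative Ror1 averaged 14.3 ± 4.74 TPM in GR KO HFSC and 16.0 ± 5.02 TPM in GR WT HFSC (SD, n = 3 each), with overlapping libraries.

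Lrp5 (chr19:3584825-3686564, minus strand), a co-receptor of the canonical route, was at 73.6, 64.1 and 64.4 TPM in GR KO HFSC, against 83.4, 85.8 and 87.0 TPM in GR WT HFSC. The groups were apart and each was narrow (log2 fold change -0.34 ± 0.10, SE, adjusted p = 0.162). Lrp6, the second co-receptor, averaged 36.8 ± 1.98 TPM in GR KO HFSC and 39.7 ± 1.69 TPM in GR WT HFSC (SD, n = 3 each). Ryk, a kinase-like Wnt receptor, was at 80.7, 71.5 and 67.2 TPM in GR KO HFSC, against 91.7, 83.3 and 86.4 TPM in GR WT HFSC. Its libraries did not overlap either (log2 fold change -0.25 ± 0.11, SE, adjusted p = 0.295).

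Of the 13 receptors and co-receptors tested in HFSC, 4 lay higher in every GR KO library, all of them frizzleds, and 3 lay lower. Over all genes tested, 10.7% lay wholly higher and 12.8% wholly lower in GR KO. Fzd8 was at 8.46, 12.04 and 10.5 TPM in GR KO HFSC, against 4.42, 6.69 and 7.05 TPM in GR WT HFSC (log2 fold change 0.69 ± 0.23, SE, adjusted p = 0.192). Fzd5 was at 8.65, 9.54 and 8.79 TPM in GR KO HFSC, against 5.45, 6.91 and 6.06 TPM in GR WT HFSC (log2 fold change 0.49 ± 0.18, SE, adjusted p = 0.240). In both, GR WT replicate 1, the shallowest library, was the lowest of all. Fzd6 ranged over 39.4 to 47.0 TPM in GR KO HFSC and over 28.0 to 39.1 TPM in GR WT HFSC, and Fzd3 over 7.89 to 8.53 TPM in GR KO and 4.64 to 7.79 TPM in GR WT. For both of these the gap between the groups was under 0.5 TPM.

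Fzd7 and Fzd2 had lower means in GR KO, without separating. Fzd7, the leading frizzled of HFSC, was at 133.8, 145.2 and 128.4 TPM in GR KO HFSC, against 141.1, 155.1 and 171.8 TPM in GR WT HFSC (log2 fold change -0.20 ± 0.11, SE, adjusted p = 0.407). Fzd2 was at 87.6, 102.8 and 72.9 TPM in GR KO HFSC, against 98.1, 109.8 and 113.7 TPM in GR WT HFSC (log2 fold change -0.30 ± 0.14, SE, adjusted p = 0.334). In each gene 1 GR KO library reached above the lowest GR WT library. The summed frizzled level was 332.0 to 380.3 TPM in GR KO and 330.7 to 420.8 TPM in GR WT, so the receptor pool as a whole overlapped.

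The secreted inhibitors made up the largest extracellular pool. Sfrp1 (chr8:23411502-23449632, plus strand), a decoy that binds Wnt ligands, was at 497.9, 458.4 and 524.7 TPM in GR KO HFSC, against 570.4, 590.7 and 588.0 TPM in GR WT HFSC. Every GR KO library was lower, and the GR WT libraries lay close together (log2 fold change -0.24 ± 0.09, SE, adjusted p = 0.251). Sfrp1 alone supplied 78.6% of the summed inhibitor level in GR KO and 80.3% in GR WT.

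Wif1, which also captures Wnt ligands, was at 7.30, 7.74 and 6.20 TPM in GR KO HFSC, against 13.7, 8.89 and 8.33 TPM in GR WT HFSC. The groups were apart by less than 1 TPM at their nearest libraries (log2 fold change -0.46 ± 0.22, SE, adjusted p = 0.349). Dkk3, a divergent Dickkopf protein, was at 126.7, 133.8 and 119.7 TPM in GR KO HFSC, against 122.1, 148.5 and 128.6 TPM in GR WT HFSC, with overlap (log2 fold change -0.07 ± 0.11, SE, adjusted p = 0.797). Dkk1 and Dkk2, which block Lrp5 and Lrp6, had no tag in any HFSC library, and the 3-tag limit for Dkk1 was 0.276 to 0.462 TPM per library. That limit was set for counting error only, and is too low even for that if both mates of a read pair were counted.

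In the R-spondin arm, the ligands were scarce and the receptors plentiful. Rspo3 had no tag in any HFSC library, and Rspo1 reached at most 1.22 TPM. Lgr4, an R-spondin receptor, was at 135.0, 112.7 and 99.3 TPM in GR KO HFSC, against 102.3, 138.0 and 140.9 TPM in GR WT HFSC (log2 fold change -0.13 ± 0.16, SE, adjusted p = 0.723). Lgr6, a receptor that also marks epithelial stem cells, was at 54.1, 46.6 and 29.8 TPM in GR KO HFSC, against 31.2, 52.7 and 66.3 TPM in GR WT HFSC (log2 fold change -0.18 ± 0.30, SE, adjusted p = 0.805). In both, most of the GR KO range was shared with GR WT. Rnf43, a ligase that removes frizzleds from the surface, was at 17.4, 20.5 and 18.2 TPM in GR KO HFSC, against 18.3, 15.3 and 19.7 TPM in GR WT HFSC (log2 fold change 0.07 ± 0.15, SE, adjusted p = 0.849). Its partner Znrf3 averaged 13.2 ± 0.795 TPM in GR KO HFSC and 12.2 ± 0.457 TPM in GR WT HFSC (SD, n = 3 each).

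All 10 intracellular members were tested in HFSC, and none reached an unadjusted p of 0.05. Ctnnb1, beta-catenin itself, was at 425.1, 402.6 and 387.0 TPM in GR KO HFSC, against 355.5, 462.4 and 555.5 TPM in GR WT HFSC. The GR KO libraries lay within the GR WT range (log2 fold change -0.15 ± 0.16, SE, adjusted p = 0.661). Tle3, a Groucho co-repressor, was at 61.4, 55.6 and 56.0 TPM in GR KO HFSC, against 58.6, 69.5 and 71.3 TPM in GR WT HFSC (log2 fold change -0.20 ± 0.12, SE, adjusted p = 0.436). Dvl1, which relays the frizzled signal, was at 49.1, 53.1 and 57.3 TPM in GR KO HFSC, against 44.7, 58.1 and 52.6 TPM in GR WT HFSC (log2 fold change 0.04 ± 0.13, SE, adjusted p = 0.899). These 3 genes had overlapping groups.

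Of the TCF and LEF factors, Tcf7l2 averaged 34.0 ± 2.41 TPM in GR KO HFSC and 40.1 ± 4.22 TPM in GR WT HFSC (SD, n = 3 each), and Tcf7 18.8 ± 1.6 TPM in GR KO and 16.2 ± 2.46 TPM in GR WT. Lef1, the factor of the growing hair shaft, was at 0.592, 1.61 and 1.17 TPM in GR KO HFSC, against 1.05, 0.665 and 1.88 TPM in GR WT HFSC. It rested on 6 to 19 tags per library, and the groups overlapped (log2 fold change -0.04 ± 0.39, SE, adjusted p = 0.973).

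Of the feedback targets, Axin2 (chr11:108920349-108950781, plus strand) was at 13.3, 16.5 and 13.4 TPM in GR KO HFSC, against 12.3, 16.8 and 11.95 TPM in GR WT HFSC. The groups overlapped, with an adjusted p of 0.862. Nkd1, an inhibitor of Dvl proteins that the pathway induces, was at 1.95, 2.01 and 0.518 TPM in GR KO HFSC, against 0.479, 1.30 and 2.58 TPM in GR WT HFSC (log2 fold change 0.05 ± 0.46, SE, adjusted p = 0.973). Notum, an enzyme that strips the lipid from Wnt ligands, was at 1.13, 1.23 and 0.779 TPM in GR KO HFSC, against 0, 0.253 and 0.904 TPM in GR WT HFSC, and its mean was under the level for testing. Sp5 had no tag in any HFSC library, with a 3-tag limit of 0.294 to 0.492 TPM.

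**Figure D4:**
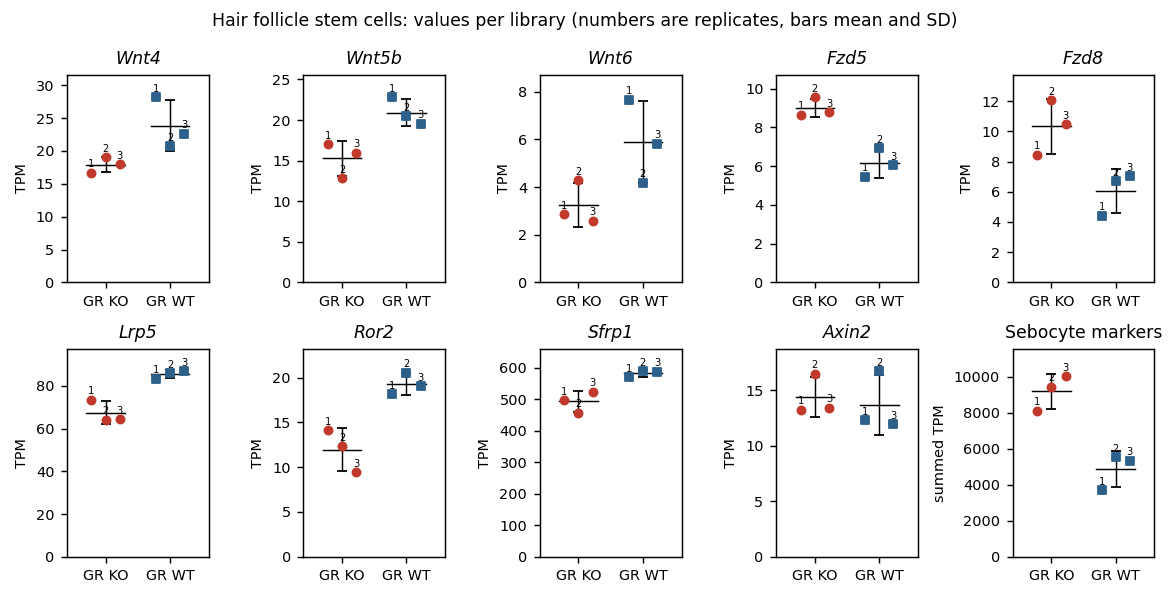
TPM in each HFSC library for 9 Wnt pathway genes, and the summed TPM of the 7 sebocyte markers, with GR KO left of GR WT; numbers are replicates, horizontal bars are means and whiskers are SD. Wnt4, Wnt5b, Lrp5, Ror2 and Sfrp1 lie lower in all GR KO libraries, Fzd5 and Fzd8 lie higher, and Axin2 overlaps.

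The HFSC libraries also differed in markers of other cell types. The 7 sebocyte markers, lipid synthesis genes such as Scd1 and Fasn, summed to 8121 to 10028 TPM in GR KO HFSC and to 3702 to 5523 TPM in GR WT HFSC, with 7 of 7 higher on average and 2 called. None of the 7 was at 0. The 8 HFSC markers summed to 13973 to 17109 TPM in GR KO HFSC and to 18253 to 23213 TPM in GR WT HFSC. Most of each sum came from Krt5, Krt14 and Krt15. Of the 8, 5 were lower and 3 higher on average, and 0 were called. The 3 higher were Cd34, Itga6 and Lgr5, with Cd34 at 130.2 to 224.8 TPM in GR KO and 108.8 to 148.7 TPM in GR WT. The part of these shifts in the values of Ror2, Lrp5, Sfrp1, the ligands and the frizzleds was not tested. Markers of T cells summed to at most 1.46 TPM in any HFSC library, and those of endothelium to at most 0.435 TPM.

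The second comparison asked which Wnt transcripts differed in Treg cells that lacked the receptor themselves. Treg cells carried hardly any Wnt ligand, but had Wls, Ctnnb1, Axin1, Tle3, Axin2 and Lef1 at levels of several TPM or more. None of the 29 tested members passed an adjusted p of 0.05 by limma, where 1.51% of the 11579 genes tested did, 0.199% higher and 1.31% lower in GR KO. The inhibitor Sfrp1 came nearest, lower in every GR KO library (adjusted p = 0.0513), followed by the T cell factor Tcf7, the inhibitor Dkk3 and the ligand Rspo3. Axin2 had a log2 fold change of -0.09, with a 95% confidence interval of -0.67 to 0.49.

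In Treg cells 6 members had an unadjusted p under 0.05, all lower in GR KO, which is 20.7% of those tested against 14.1% of all genes. By direction, 8.93% of all genes were lower and 5.15% higher at that level. The GR KO and GR WT libraries did not overlap for 3 members, Sfrp1, Tcf7 and Dkk3, all lower in GR KO, or 10.3%, against 8.52% of all genes tested in either direction, 3.42% higher and 5.1% lower. Voom called 1 member, Sfrp1 (adjusted p = 0.00784), and 2.18% of all genes. The median log2 fold change of the 29 was -0.23, beside -0.04 over all genes tested, with 5 positive and 24 negative. That median was -0.119 without GR WT replicate 3, -0.367 without GR WT replicate 2 and -0.364 without GR WT replicate 1. The members whose groups did not overlap numbered 8 without GR WT replicate 2, or 27.6%, against 16.4% of all genes tested. They numbered 6 without GR WT replicate 1, or 20.7%, against 22.1% of all genes. Without GR KO replicate 4 there were also 6, or 20.7%, against 14.7% of all genes. Without GR WT replicate 3 the number of genes called over the whole table was 84 and without GR WT replicate 1 it was 107, against 175 with all libraries.

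Treg libraries also held RNA of other skin cells, in unequal amounts. The 10 basal keratinocyte markers summed to 24.0 to 107.0 TPM in GR KO Treg libraries and to 347.5 to 582.1 TPM in GR WT Treg libraries, with 10 of 10 lower on average and 7 called. The 9 macrophage markers summed to 62.6 to 166.3 TPM in GR KO and to 204.4 to 360.0 TPM in GR WT, with 9 of 9 lower on average and 4 called. The fibroblast markers apart from Vim, which Treg cells also express, summed to 22.03 to 106.6 TPM in GR KO and to 112.0 to 191.2 TPM in GR WT. All 9 of the list were lower on average and 0 were called. No marker of these 3 lists was at 0 in all Treg libraries. The 7 sebocyte markers summed to 53.9 to 93.7 TPM in GR KO and to 149 to 163 TPM in GR WT. All 7 were lower on average and 3 were called. Of the 8 HFSC markers, some of them keratins of the list above, 8 were lower on average and 4 called. Endothelial and melanocyte markers were 5 of 5 lower each, with overlapping sums and 0 called. Of the hair matrix markers 4 were lower and 1 higher, and of 4 T cell markers 2 were lower and 2 higher. In the median over the 10 keratinocyte markers, GR KO Treg libraries held 0.0549% to 0.371%, and GR WT Treg libraries 1.07% to 1.77%, of the mean HFSC level of their genotype.

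Of the secreted inhibitors, Sfrp1 was at 0.807, 1.081, 0.678, 2.05 and 1.14 TPM in GR KO Treg cells, against 3.97, 3.50 and 4.32 TPM in GR WT Treg cells. The groups were well apart, on 26 to 196 tags per library (log2 fold change -1.23 ± 0.27, SE, adjusted p = 0.0513). It passed the threshold without GR KO replicate 4, at an adjusted p of 0.0338. Dkk3 was at 1.38, 0.549, 0.952, 0.556 and 0.880 TPM in GR KO Treg cells, against 2.22, 2.06 and 3.62 TPM in GR WT Treg cells, again without overlap (log2 fold change -0.96 ± 0.28, SE, adjusted p = 0.163).

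Both genes are among the most abundant members of HFSC. Relative to the mean HFSC level of the same genotype, Sfrp1 stood at 0.233% in GR KO Treg cells and 0.674% in GR WT Treg cells. For Dkk3 the shares were 0.681% in GR KO and 1.98% in GR WT. For the keratinocyte marker Krt14 they were 0.321% in GR KO and 2.14% in GR WT. For Krt5 they were 0.141% in GR KO and 0.863% in GR WT. The basal keratinocyte markers as a list spread widely, from 0.0225% (Itgb4) to 10% (Itga3) in GR KO. In GR WT their shares ran from 0.563% (Col17a1) to 11% (Itga3). The part of keratinocyte RNA in the Sfrp1 and Dkk3 values was not tested.

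Wif1 was at 4.47, 4.71, 1.63, 6.22 and 3.63 TPM in GR KO Treg cells, against 9.02, 4.40 and 28.9 TPM in GR WT Treg cells. GR WT replicate 2 sat within the GR KO range, and GR WT replicate 3 stood far above the rest (log2 fold change -1.27 ± 0.48, SE, adjusted p = 0.277). Without replicate 3 the log2 fold change was -0.59. Dkk2 was at 13.3, 8.47, 7.45, 26.7 and 10.95 TPM in GR KO Treg cells, against 23.5, 9.89 and 36.2 TPM in GR WT Treg cells, with wide overlap (log2 fold change -0.72 ± 0.42, SE, adjusted p = 0.486). Dkk1 had no tag in any Treg library, with a 3-tag limit of 0.124 to 0.185 TPM.

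In the R-spondin arm, Rspo3, a ligand that raises frizzled levels, was at 0.407, 0.878, 0.191, 1.48 and 1.62 TPM in GR KO Treg cells, against 7.15, 1.07 and 9.58 TPM in GR WT Treg cells. GR WT replicates 1 and 3 stood high and GR WT replicate 2 lay among the GR KO libraries (log2 fold change -1.62 ± 0.50, SE, adjusted p = 0.182). Without GR WT replicate 2 the log2 fold change was -2.34 and the adjusted p 0.0143. Rspo1 was at 1.40, 1.22, 0.748, 3.26 and 4.39 TPM in GR KO Treg cells, against 6.03, 1.54 and 10.9 TPM in GR WT Treg cells, with the same GR WT replicate 2 low (log2 fold change -1.03 ± 0.50, SE, adjusted p = 0.390).

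The ligases were more even. Rnf43 was at 6.08, 9.98, 9.43, 9.77 and 10.3 TPM in GR KO Treg cells, against 6.57, 9.07 and 6.55 TPM in GR WT Treg cells (log2 fold change 0.26 ± 0.20, SE, adjusted p = 0.599). Znrf3 was at 2.54, 3.69, 3.82, 5.05 and 4.00 TPM in GR KO Treg cells, against 4.77, 6.01 and 5.46 TPM in GR WT Treg cells (log2 fold change -0.43 ± 0.22, SE, adjusted p = 0.409). For Rnf43, GR KO replicate 1 lay below the GR WT libraries and the other 4 GR KO libraries lay above them. For Znrf3, GR KO replicate 4 lay inside the GR WT range and the other 4 lay below it.

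**Figure D5:**
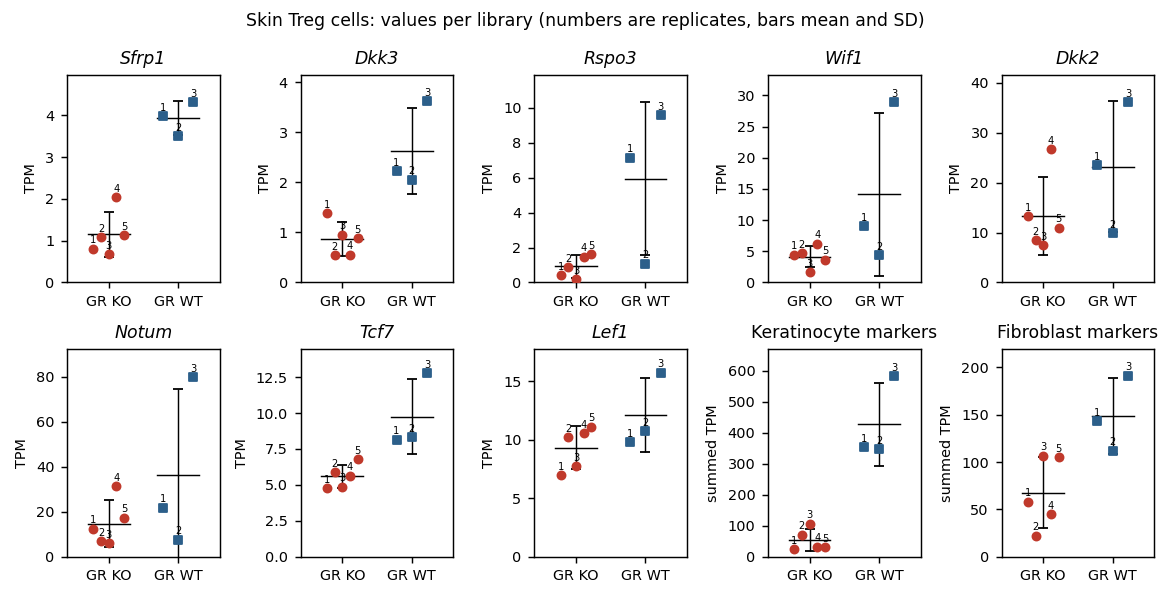
TPM in each Treg library for 8 Wnt pathway genes, the summed TPM of the 10 basal keratinocyte markers and the summed TPM of the 8 fibroblast and dermal papilla markers other than Vim, with GR KO left of GR WT; numbers are replicates, horizontal bars are means and whiskers are SD. Sfrp1, Dkk3 and Tcf7 lie lower in all GR KO libraries, as do both marker sums, whereas Dkk2 and Notum are highest in GR WT replicate 3, GR KO replicate 4 and GR WT replicate 1.

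Tcf7 (chr11:52252283-52282595, minus strand), the TCF factor of T cells, was at 4.77, 5.87, 4.87, 5.65 and 6.80 TPM in GR KO Treg cells, against 8.14, 8.33 and 12.8 TPM in GR WT Treg cells. Every GR KO library was lower (log2 fold change -0.69 ± 0.20, SE, adjusted p = 0.150). Tcf7 was also present in HFSC, where it averaged 18.8 TPM in GR KO and 16.2 TPM in GR WT, so its Treg level was 29.7% of that of HFSC in GR KO and 60.2% in GR WT. Lef1 (chr3:131112791-131224357, plus strand), which partners Tcf7 in T cells, was at 6.95, 10.2, 7.75, 10.5 and 11.1 TPM in GR KO Treg cells, against 9.80, 10.7 and 15.7 TPM in GR WT Treg cells. Its groups overlapped (log2 fold change -0.34 ± 0.21, SE, adjusted p = 0.498).

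Ctnnb1 was at 88.1, 93.3, 84.7, 100.9 and 93.4 TPM in GR KO Treg cells, against 108.5, 93.4 and 184.3 TPM in GR WT Treg cells. GR WT replicate 3 was the highest library (log2 fold change -0.42 ± 0.18, SE, adjusted p = 0.336), and without it the log2 fold change was -0.13. Axin1, the scaffold of the degradation complex, was at 31.7, 43.5, 40.002, 42.8 and 42.5 TPM in GR KO Treg cells, against 33.6, 44.7 and 40.9 TPM in GR WT Treg cells (log2 fold change 0.01 ± 0.14, SE, adjusted p = 0.978). Tle3 was at 21.0, 22.7, 26.8, 25.5 and 25.7 TPM in GR KO Treg cells, against 19.5, 31.9 and 31.0 TPM in GR WT Treg cells (log2 fold change -0.14 ± 0.17, SE, adjusted p = 0.759). Both of these overlapped.

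Axin2 was at 9.33, 12.8, 13.8, 15.9 and 13.6 TPM in GR KO Treg cells, against 7.85, 16.8 and 19.5 TPM in GR WT Treg cells. The GR WT libraries spanned the whole GR KO range (adjusted p = 0.920). Notum was at 12.5, 6.80, 6.02, 31.2 and 17.3 TPM in GR KO Treg cells, against 21.7, 7.63 and 79.9 TPM in GR WT Treg cells (log2 fold change -0.90 ± 0.65, SE, adjusted p = 0.570). Nkd1 was at 0.847, 0.183, 1.16, 0.996 and 0.942 TPM in GR KO Treg cells, against 0.64, 0.533 and 3.26 TPM in GR WT Treg cells (log2 fold change -0.30 ± 0.40, SE, adjusted p = 0.790). For Notum and Nkd1, GR WT replicate 3 was the highest library and the other GR WT libraries lay among the GR KO ones. Without GR WT replicate 3 the log2 fold change of Notum was -0.06.

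Over the 8 fibroblast and dermal papilla markers other than Vim, the summed level was 58.35, 22.03, 106.6, 44.79 and 105.4 TPM in GR KO Treg cells, against 143.4, 112.0 and 191.2 TPM in GR WT Treg cells. All GR WT sums lay above all GR KO sums, and GR KO replicate 4 was the second lowest. Dcn, a fibroblast proteoglycan and the main part of that sum, was at 33.9, 9.23, 66.5, 27.4 and 75.7 TPM in GR KO, against 101.2, 74.9 and 97.3 TPM in GR WT. Corin, the dermal papilla marker of the list, is given here after its values were seen, and it was at 0.260, 0.168, 0.146, 1.19 and 0.157 TPM in GR KO Treg cells, against 0.735, 0 and 1.27 TPM in GR WT Treg cells. Among the GR KO libraries, replicate 4 was thus highest for Corin but low for the list as a whole. It was also the highest of them for Dkk2, Notum and Wif1. The same held for members such as Wls, Sfrp1, Lrp6, Ctnnb1 and Axin2. Rspo1 and Rspo3 were highest in GR KO replicate 5, where Corin was at 0.157 TPM. Sox2, the other papilla marker, had tags in 1 Treg library, GR WT replicate 1. The part of fibroblast or papilla RNA in the members' values was not tested.

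Of the receptors, Ryk was at 11.9, 9.16, 9.49, 14.5 and 13.1 TPM in GR KO Treg cells, against 12.7, 10.9 and 17.9 TPM in GR WT Treg cells (log2 fold change -0.22 ± 0.20, SE, adjusted p = 0.67). Lrp6 was at 7.38, 9.24, 8.94, 14.0 and 8.94 TPM in GR KO Treg cells, against 9.75, 11.3 and 12.1 TPM in GR WT Treg cells (log2 fold change -0.19 ± 0.20, SE, adjusted p = 0.714). Fzd5, the leading frizzled of Treg cells, was at 5.18, 3.68, 3.98, 6.16 and 3.75 TPM in GR KO, against 4.43, 6.35 and 5.57 TPM in GR WT (log2 fold change -0.23 ± 0.22, SE, adjusted p = 0.689). All 3 had overlapping groups.

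Among the ligands and secretion factors, Wls was the only one above 3 TPM in any Treg library, at 109.9, 120.4, 98.4, 124.5 and 116.9 TPM in GR KO Treg cells, against 104.9, 108.7 and 112.2 TPM in GR WT Treg cells (log2 fold change 0.07 ± 0.10, SE, adjusted p = 0.819). Wnt6 was at 0.236, 2.54, 0.442, 0.903 and 1.16 TPM in GR KO, against 1.07, 0 and 2.43 TPM in GR WT (log2 fold change 0.00 ± 0.46, SE, adjusted p = 0.997). Wnt10a was at 0.124, 0.402, 0.116, 2.001 and 1.13 TPM in GR KO, against 1.55, 0.587 and 1.28 TPM in GR WT, with a mean under the level for testing. The 12 ligands summed to 1.02 to 5.14 TPM in GR KO and to 1.68 to 7.51 TPM in GR WT. Wnt3a, Fzd9 and Dkk1 had no tag in any Treg library. Of the 26 members under the level for testing, 23 had a tag in some library. Among these 23, GR KO libraries lay wholly below GR WT libraries for Fzd3, Lgr6, Tcf7l2 and Sp5, or 17.4%, beside 5.88% of the 4964 genes of all kinds under that level with a tag, and 1.16 TPM was the highest value of any library for these 4.

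A second list of 61 pathway genes outside the set gave 43 tested genes in HFSC, of which limma called 0, voom called 3 and 8 had an unadjusted p under 0.05, with 2 higher and 6 lower. Those 8 were 18.6% of the 43, beside 16.6% of all genes tested, 7.8% higher and 8.8% lower. Over all genes limma called 0.176% and voom 3.87%. The median log2 fold change of the 43 was -0.06, beside -0.02 over all genes tested. Myc, a proliferation factor and beta-catenin target, averaged 121.2 ± 14.5 TPM in GR KO HFSC and 80.6 ± 4.27 TPM in GR WT HFSC (SD, n = 3 each), without overlap (log2 fold change 0.58 ± 0.12, SE, adjusted p = 0.0776). Sostdc1, an antagonist of Wnt and BMP signals, averaged 138.4 ± 31.9 TPM in GR KO HFSC and 209.1 ± 14.4 TPM in GR WT HFSC, also without overlap (log2 fold change -0.62 ± 0.16, SE, adjusted p = 0.128). Ctnnbip1, Aes, Ccnd1 and Apcdd1 followed with negative log2 fold changes of -0.40, -0.27, -0.53 and -0.61 and adjusted p-values of 0.175, 0.216, 0.223 and 0.223. Voom called Myc, Sostdc1 and Ccnd1.

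In Treg cells 36 of the 61 were tested, limma and voom called 0, and 7 had an unadjusted p under 0.05, with 2 higher and 5 lower. Those 7 were 19.4% of the 36, beside 14.1% of all genes tested, 5.15% higher and 8.93% lower. Over all genes limma called 1.51% and voom 2.18%. The median log2 fold change of the 36 was -0.26, beside -0.04 over all genes tested. Myc averaged 15.9 ± 3.54 TPM in GR KO Treg cells (SD, n = 5) and 26.1 ± 1.94 TPM in GR WT Treg cells (SD, n = 3), again without overlap (log2 fold change -0.70 ± 0.18, SE, adjusted p = 0.0943). Sostdc1 averaged 0.550 ± 0.498 TPM in GR KO Treg cells and 2.63 ± 1.35 TPM in GR WT Treg cells (log2 fold change -1.23 ± 0.37, SE, adjusted p = 0.163). Dkkl1, a Dickkopf-like protein, averaged 34.4 ± 6.18 TPM in GR KO and 23.2 ± 4.81 TPM in GR WT (log2 fold change 0.55 ± 0.17, SE, adjusted p = 0.178). Pygo2, Celsr1 and Prickle1 followed with log2 fold changes of 0.39, -0.67 and -0.60 and adjusted p-values of 0.277, 0.325 and 0.331.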

How the data were processed

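Sorted cell RNA was sequenced in 14 libraries. The authors deposited TPM per gene in 1 table per cell type, with the coordinates and transcript length (another unit, bases) of 1 RefSeq transcript per symbol, per the file headers. FastQC, Trim Galore, STAR, HOMER and build mm10 are listed, per the submitters' processing notes. No source used here states versions or whether counting used the strand, so overlapping antisense genes may share reads. All sample columns were mapped to labels, those of HFSC by table, genotype and number.

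Each table was tested alone, over genes averaging 1 TPM or more, with limma 3.58.1 (R 4.3.3) on log2(TPM + 1), trended prior, two-sided, Benjamini-Hochberg threshold 0.05. Adding 1 TPM understates the change of low genes. TPM times length was a whole multiple of 1 step within 0.1 for 100.0% of the values examined, which gave whole tags for voom. Tags per gene were even numbers in 68.6% to 77.3% of low values, so mates may be counted separately. Limits from 3 tags were set for counting error only, and are too low even for that if mates were counted separately. Named in full were Axin2, Lef1, the 8 smallest p-values per table and the 3 highest levels per role and cell type; up to 6 genes of the second list are named by p. Members, lists and tests were chosen with earlier results of these data known. The fit was also run on simulated data that gave every gene the same extra spread beyond counting noise. Its outcome is not used as support here. No replicate pair differed by less than sampling noise. Alternatives covered pseudocount, filter, scaling, prior, voom, replicate number and single libraries.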

Additional observations from a re-analysis of the deposited data

Results flagged for a closer look

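Among the 29 tested members, 3 showed a lone library in the GR KO Treg group of 5, and chance alone marks about 1 in 20 such groups. Rnf43 was at 6.08 TPM in replicate 1, below the other 4 libraries, with a gap of 0.824 of the group's range, against the critical value of 0.71. Axin1 was at 31.7 TPM in the same replicate 1, again the lowest, with a gap of 0.734 of the range. Nkd1 was at 0.183 TPM in replicate 2, the lowest of the 5, with a gap of 0.738 of the range. Of 59 pathway genes tested in both tables, Myc had GR KO libraries wholly below GR WT in Treg cells (log2 fold change -0.70) and wholly above in HFSC (log2 fold change 0.58). Over all genes tested, 5.1% lay wholly lower and 3.42% wholly higher in GR KO Treg cells. In HFSC 12.8% lay wholly lower and 10.7% wholly higher. The share of all genes that did so in opposite directions was not counted. The cell types were taken on different days and fitted apart, and the difference between them was not tested.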

How the results depend on the processing

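Over the alternatives, 703 fold changes of the members named in full were recomputed (45 pairs of a gene and a table, over 32 genes). Of these, 662 kept their direction and side of the threshold, 8 newly passed it, 0 lost it and 33 changed sign. The cause was not tested. No member passed the threshold in the main fits, so none could lose it. Keeping the side of the threshold therefore meant staying uncalled. In HFSC the members called were 0 except 2 by voom, and the second list 0 except 3 by voom. All HFSC genes called numbered 22 (18 higher, 4 lower), against 2 with no filter, 48 at 5 TPM, 69 with median ratio scaling, 58 with quantile scaling, 51 with a robust prior and 483 by voom (240 higher, 243 lower), and 0 to 5 with a library left out. The members' median ranged over -0.155 to -0.003 and the count without overlap over 13 to 19 (32.5 to 46.3%, beside 30.2 to 38.2% of all genes) with a library left out. In Treg cells 1 member, Sfrp1, was called with a pseudocount of 5, median ratio scaling, a robust prior or voom. With a library left out 0 or 1 member was called, Sfrp1 without GR KO replicate 4 and Rspo3 without GR WT replicate 2. All Treg genes called numbered 84 to 186 with a library left out, and members without overlap 1 at 5 TPM (6.2%, beside 8.5% of all genes) and 3 to 8 with a library left out (all genes 9.9 to 22.1%).

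Correlations between GR KO and GR WT libraries of the same replicate number were 0.02, 0.06 and -0.04 in HFSC and 0.17, 0.09 and -0.12 in Treg cells. Those of different numbers ran from -0.07 to 0.05 in HFSC and from -0.24 to 0.18 in Treg cells. So few values cannot tell whether replicate numbers pair the samples. With the replicate block, 66 HFSC genes (61 higher, 5 lower) and 78 Treg genes (4 higher, 74 lower) were called, none of them members, and Axin1 in Treg cells changed sign to -0.051.

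Small fold changes changed sign. In HFSC these were Nkd1 (-0.038 with quantile scaling, -0.101 by voom, -0.271 to 0.371 with a library left out) and Dvl1 (-0.021 by voom, -0.059 to 0.127). With a library left out they were also Lef1 (-0.223 to 0.172), Axin2 (-0.016 to 0.225), Lgr6 (-0.476 to 0.068), Dkk3 (-0.125 to 0.015), Rnf43 (-0.026 to 0.146) and Wls (-0.15 to 0.107). In Treg cells these were Wnt6 (0.444 with a pseudocount of 0.1, 0.01 with median ratio scaling, 0.204 with quantile scaling, 0.862 by voom, -0.473 to 0.157), Axin1 (-0.1 to 0.1) and Axin2 (-0.46 to 0.147). Lef1, Nkd1 and Notum in HFSC and the ligands in Treg cells rested on few tags.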
